A study of Mus musculus with 2 samples.

Results

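The interferon and innate RNA sensing genes were taken from the ATAC-seq peak table by gene symbol. The members were symbols starting with Irf, Stat, Gbp or Mx and a number, or with Ifi, Ifn, Oas, Isg or Tlr, together with Rigi, Mavs, Eif2ak2, Usp18, Rsad2, Bst2, Dhx58, Zbp1 and Adar. This rule found 62 genes with 114 peaks, of 16934 genes with 43864 peaks that carried a symbol, and 63316 peaks in all. ATAC-seq marks open chromatin, because the Tn5 transposase cuts and tags DNA where nucleosomes leave it exposed. The cells of both libraries were mouse cardiac fibroblasts in primary culture. All of them received TGF-β at 5 ng/ml for 24 h, which drives them towards myofibroblasts. One library, named NC in the labels, came from cells transfected with scrambled siRNA (SCR), and the other from cells transfected with siRNA against the stretch-gated ion channel Piezo2 (siPiezo2). The labels give neither the age, sex or strain of the mice nor an untreated control, and the series design text describes a Tet3 knockout by Cre virus, which neither sample label names.

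With 1 library per condition there was no test between conditions, and no p-value is given. The difference cannot be told apart from the spread between cultures or from a difference between libraries. Each value is a normalized read density, the number of reads per kilobase in a 2000 bp window around a peak after the correction made by the authors, summed over the peaks of a gene. Ratios are log2((siPiezo2 + 1)/(SCR + 1)) of these densities, so that a value below 0 is lower in siPiezo2. The 95% intervals in parentheses are exact (Clopper-Pearson) intervals from the reads behind each ratio and cover counting error only. For the 13 members with overlapping windows, shared reads enter a sum more than once and the interval is too narrow, so the value from separate windows is given where it changes the reading. The SCR windows held 4615335 reads and the siPiezo2 windows 2754046, with medians of 58 and 36 reads per window, so small differences at single peaks were not detectable. At peaks called in both libraries the ratios varied with 2.05 times the variance of counting error. In the widened interval, the distance from the ratio to each limit is multiplied by the square root of 2.05. It is given for the genes whose counting interval it changes from excluding to including 0.

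Interferons are secreted alarm proteins. They bind receptor pairs (Ifnar1 with Ifnar2, or Ifngr1 with Ifngr2), whose kinases phosphorylate STAT proteins. STATs and interferon regulatory factors (IRFs) then bind 2 kinds of DNA site, the interferon-stimulated response element (ISRE) and the gamma-activated sequence (GAS), in front of antiviral genes. Upstream, the RIG-I-like receptors sense viral RNA in the cytosol and signal through Mavs, and Toll-like receptors sense microbial molecules in endosomes or at the cell surface. Fibroblasts are known to carry this pathway and to answer interferon.

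The promoters of the members held the ISRE core far more often than promoters at large, and the stretches below show where it lies in some of the members with a peak at the start site. The core was searched as GAAA and GAAA separated by any 2 bases on either strand, in the 300 bases from 250 before to 50 after each start site in RefSeq (GRCm38.p6). It was present in 20 of the 54 members with a sequence (37.0%) and in 3.99% of all 27025 genes of that table. GAS was searched as TTCNNNGAA, which reads the same on both strands, and was present in 17 members (31.5%) against 9.55% of all genes. For 8 members, among them Dhx58, Gbp8, Ifi27, Ifi27l2b, Tlr4, Usp18 and Zbp1, no promoter sequence was used. The first 3 stretches are the whole 250 bases before the start site of the members past 1.5-fold that had both an ISRE core and a peak at the start site. A peak at the start site here is one annotated as promoter within 1 kb or as 5′ UTR, and it need not cover the start. Capitals mark the ISRE core.

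Bst2 (chr8:71537473-71537722, minus strand): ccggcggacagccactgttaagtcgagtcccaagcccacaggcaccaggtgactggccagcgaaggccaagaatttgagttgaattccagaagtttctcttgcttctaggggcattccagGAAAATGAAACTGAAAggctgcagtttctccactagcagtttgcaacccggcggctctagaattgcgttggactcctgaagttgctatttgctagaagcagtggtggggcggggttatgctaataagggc
Ifi207 (chr1:173741810-173742059, minus strand): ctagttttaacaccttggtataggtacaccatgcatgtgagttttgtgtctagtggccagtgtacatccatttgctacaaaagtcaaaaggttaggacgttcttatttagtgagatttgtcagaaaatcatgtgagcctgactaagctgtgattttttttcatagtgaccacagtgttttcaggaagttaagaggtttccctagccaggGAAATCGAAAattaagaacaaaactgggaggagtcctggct
Ifitm2 (chr7:140955962-140956211, minus strand): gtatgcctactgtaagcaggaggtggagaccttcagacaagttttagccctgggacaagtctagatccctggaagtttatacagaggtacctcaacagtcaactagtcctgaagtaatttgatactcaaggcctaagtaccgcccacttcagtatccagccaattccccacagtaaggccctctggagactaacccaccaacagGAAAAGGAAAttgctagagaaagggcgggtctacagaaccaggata

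In Bst2, which encodes the tetherin that holds budding virus at the cell surface, the core starts at positions -130 and -124, where -1 is the base before the start site, and the copies overlap. A GAS match at -136 overlaps the first of them. The shorter stretches that follow show the core with up to 20 bases on each side, where it lies before the start site, in some further members with a peak there. Stat2, Oas1c, Irf2, Gbp2, Eif2ak2, Ifih1 and Ifitm3 also had a core and such a peak, and Ifi205 had another core past its start site. The Gbp2 peak lies at -808 from the start site and the Gbp3 peaks at -260 and 279, and none of these covers it. In Irf1, the capitals mark the GAS at position -90 instead.

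Rsad2 (chr12:26456543-26456592, minus strand): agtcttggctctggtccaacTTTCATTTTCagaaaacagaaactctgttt
Ifit1bl2 (chr19:34640765-34640833, minus strand): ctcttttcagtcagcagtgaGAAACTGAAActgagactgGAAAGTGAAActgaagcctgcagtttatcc
Gbp7 (chr3:142530263-142530312, plus strand): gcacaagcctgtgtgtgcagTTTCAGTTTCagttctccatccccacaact
Gbp3 (chr3:142559979-142560034, plus strand): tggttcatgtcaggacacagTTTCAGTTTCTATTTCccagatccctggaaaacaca
Ifi205 (chr1:174031860-174031909, minus strand): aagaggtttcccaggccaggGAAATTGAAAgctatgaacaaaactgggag
Irf1 (chr11:53769904-53769952, plus strand): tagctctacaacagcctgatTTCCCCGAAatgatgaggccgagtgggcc

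Members with the core lay on both sides of 0. Bst2 and Ifi207 lay higher in siPiezo2, while Ifitm2 lay lower. Over the 20 members with an ISRE core the median log2 ratio was 0.04, with 8 below 0, and over the 34 without it was -0.11, with 21 below 0. Among all 11877 genes with both a peak and a promoter sequence, the 399 with the core had a median of -0.10 and the others -0.09. For GAS, the 17 members with it had a median of -0.11, with 9 below 0, and the 37 without it -0.06, with 20 below 0. A letter match is a description of the sequence and says nothing of what was bound there.

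Over the 62 members the median log2 ratio was -0.08 (95% interval of the median -0.19 to 0.07), and 35 of 62 lay below 0 (56.5%). All 16934 genes had a median of -0.09, with 62.6% below 0. Both medians changed sign with the scaling: with the trimmed mean of log2 ratios set to 0, the members' median was 0.06 and that of all genes 0.05. The middle of the members thus lay beside the middle of all genes under either scaling, and their quartiles were -0.27 and 0.17 against -0.29 and 0.10. Each ratio below stands on the scale of the deposited densities, on which the middle gene of the table is at -0.09, and so does each statement on whether an interval includes 0.

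Past 1.5-fold, 5 members lay lower in siPiezo2 (8.06%), beside a background of 6.6% of all genes. These were Irf2bp1, Gbp8, Stat4, Ifitm2 and Ifit3. Past 1.5-fold upwards lay 4 members (6.45%), beside a background of 1.54%. These were Oasl2, Ifi207, Bst2 and Oasl1. With the trimmed mean set to 0, 2 lay lower (Irf2bp1 and Gbp8) and the same 4 higher, beside 3.6% and 3.89% of all genes. No member passed 2-fold in either direction. Genes with 1 peak passed 1.5-fold more often. On the deposited scale, 4 of the 37 members with 1 peak lay lower and 3 higher, beside 719 and 216 of all 8320 such genes. Of the 25 members with 2 or more peaks, 1 lay lower and 1 higher, beside 398 and 44 of all 8614 such genes. The counting interval lay below 0 for 7 members (11.3%), beside 15.8% of all genes, and above 0 for 4 (6.45%), beside 4.68%. With the trimmed mean set to 0, the interval lay below 0 for 5 members, beside 7.19% of all genes, and above 0 for 12, beside 11.9%. The 8 gained above were Ifi47, Ifnar1, Ifngr1, Ifngr2, Irf2bp2, Rsad2, Stat3 and Tlr4. With separate windows 6 members lay below 0 and 5 above, beside 14.2% and 4.15% of all genes, with Ifi30 lost and Rsad2 gained. With the widened interval 3 members stayed below 0 (Irf2bp1, Ifitm2 and Stat5b) and 1 above (Oasl1), beside 7.07% and 1.47% of all genes. Of the members' 114 peaks, 9 lay lower past 1.5-fold (7.89%, background 12.8%) and 6 higher (5.26%, background 2.82%).

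**Figure D1:**
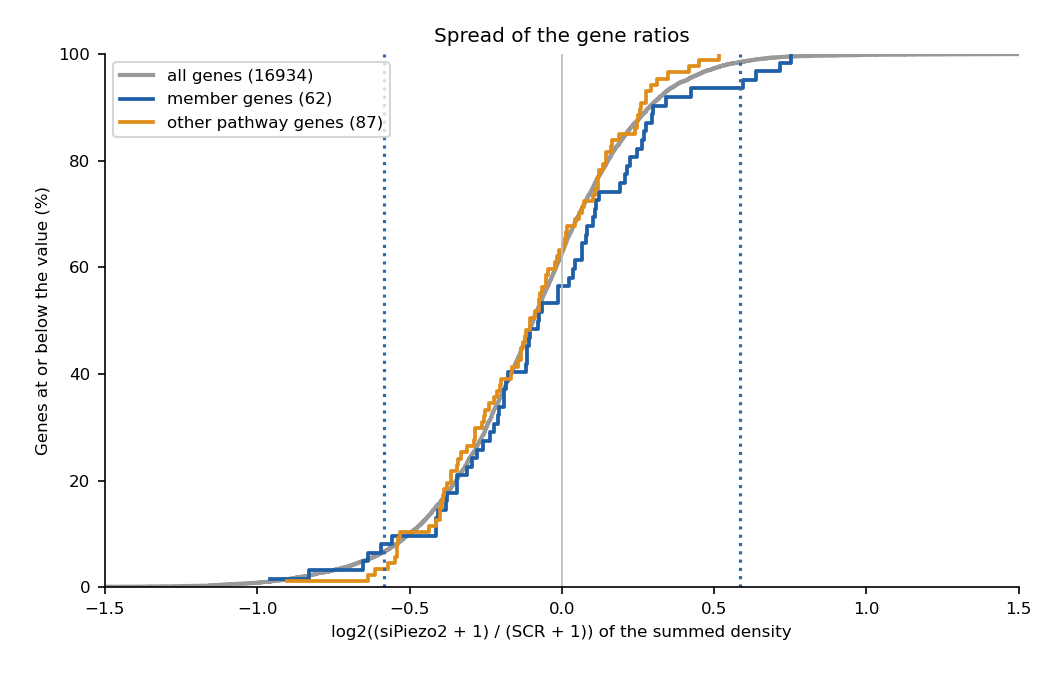
Cumulative share of genes (y axis, percent) at or below each log2 ratio of siPiezo2 over SCR (x axis) for all 16934 genes, the 62 members and the 87 other pathway genes. The dotted lines mark 1.5-fold. The medians are -0.09, -0.08 and -0.10, and 4 members lie past the upper dotted line, where no other pathway gene lies.

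**Figure D2:**
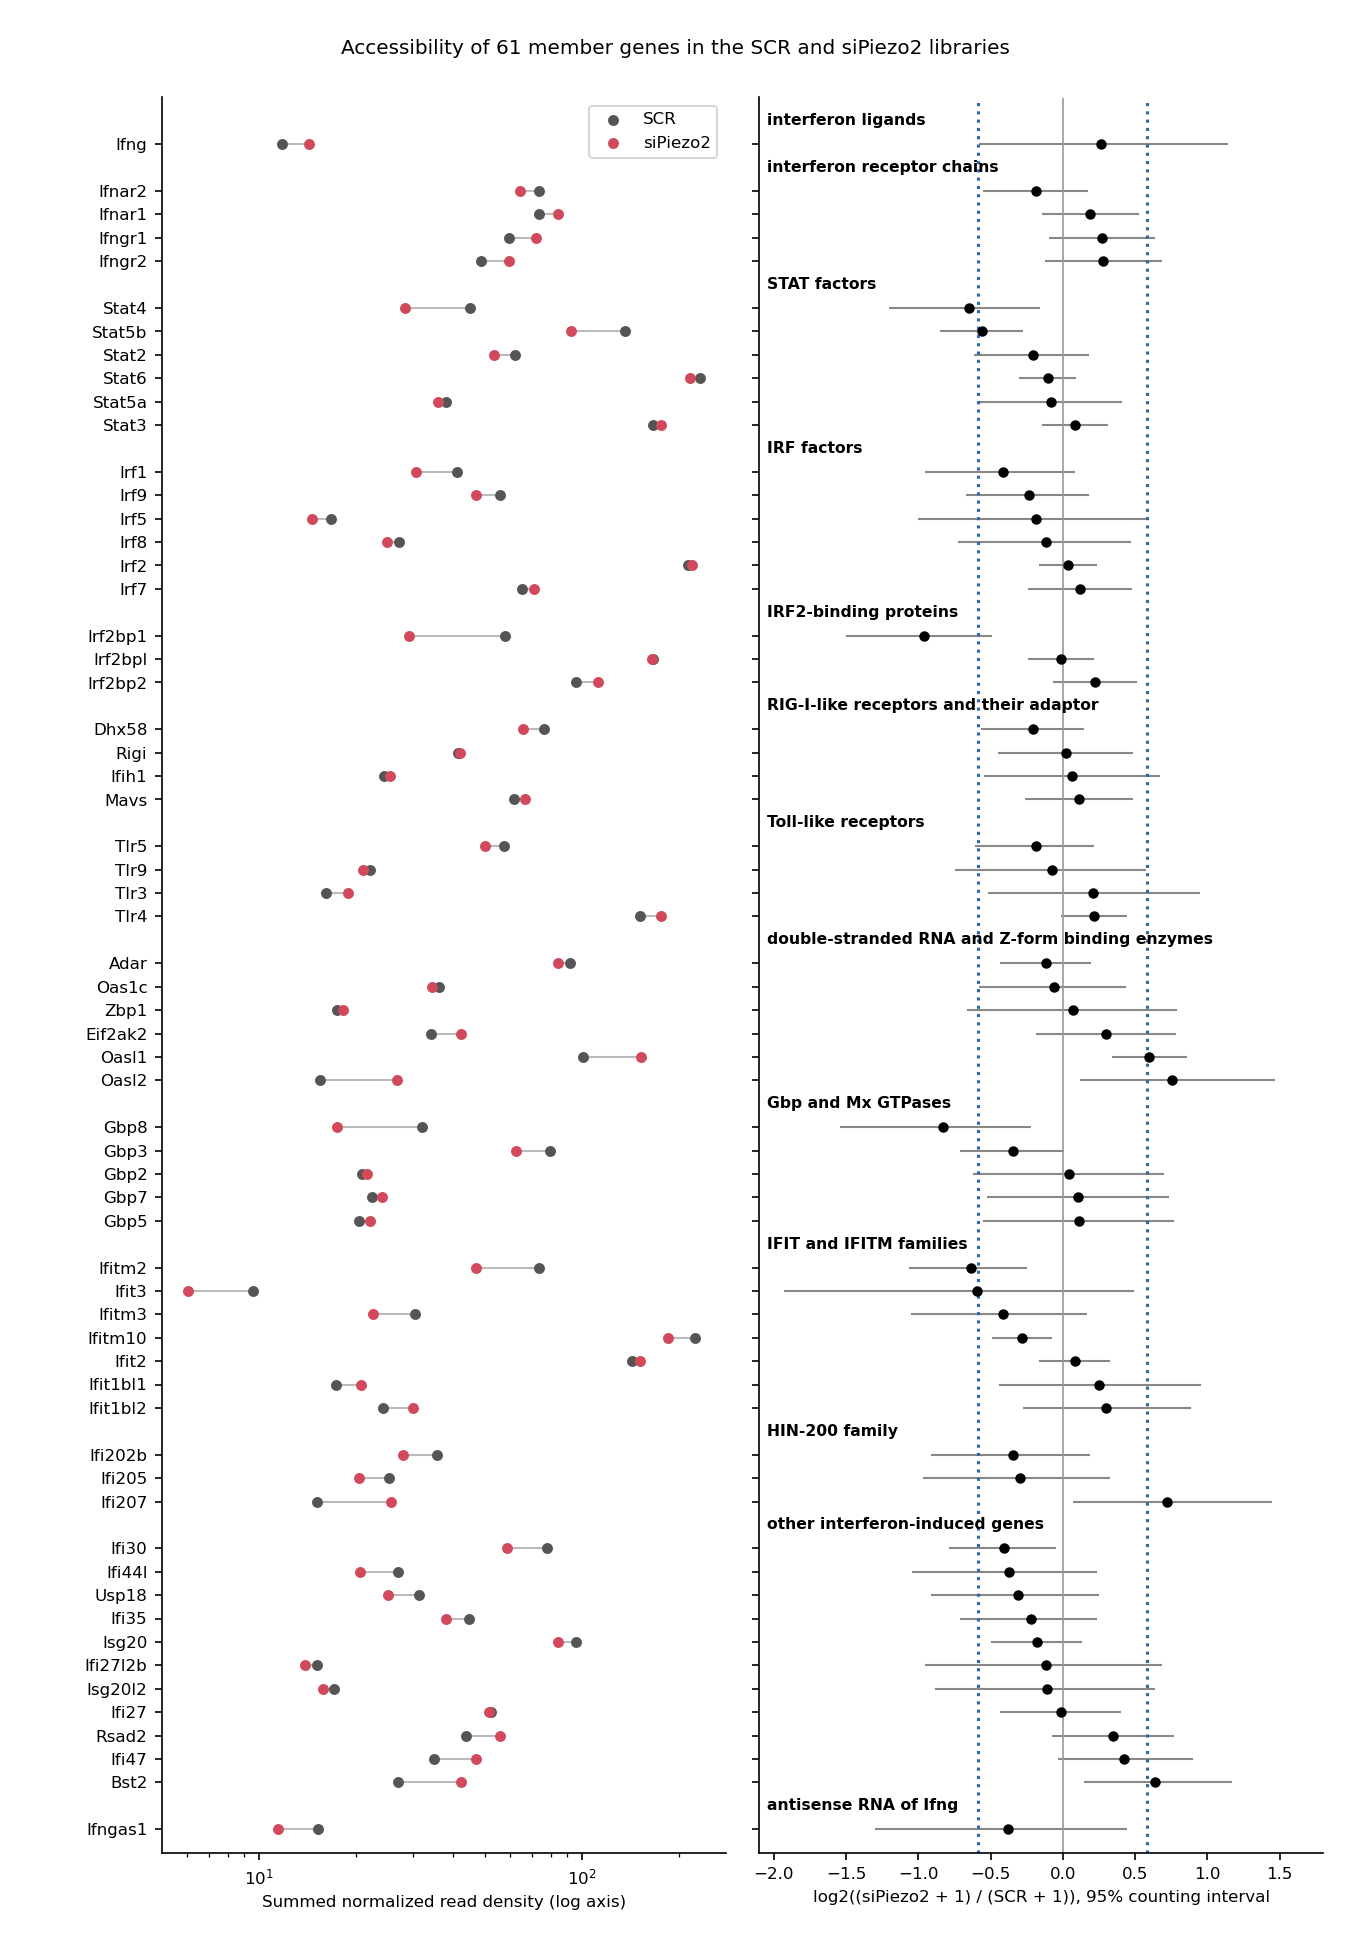
Of the 62 members, 61 grouped by role. On the left, the summed normalized read density in SCR (grey) and siPiezo2 (red) on a log axis. On the right, the log2 ratio with its 95% counting interval, with dotted lines at 1.5-fold. The intervals of Oasl1, Oasl2, Ifi207 and Bst2 lie above 0, and those of 7 members, among them Irf2bp1 and Stat5b, lie below 0.

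Of the ligands, only Ifng, which encodes interferon gamma, had a peak. It lies in intron 1 of 3 (chr10:118277914-118278117 in the coordinates of the deposited table) and had a density of 11.8 in SCR and 14.3 in siPiezo2, from 26 and 24 reads, with a log2 ratio of 0.26 (-0.58 to 1.14). The antisense RNA gene Ifngas1 beside it had 15.2 and 11.5, with a ratio of -0.38 (-1.30 to 0.44). Neither pair of values differed beyond counting error. None of the 19 type I interferon genes listed in RefSeq, a pseudogene included, had a peak under its symbol.

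The receptor chains had a median of 0.23 over 4 genes, or 0.37 with the trimmed mean set to 0, with no member past 1.5-fold. Ifngr1, the ligand-binding chain for interferon gamma, had densities of 59.5 in SCR and 71.9 in siPiezo2, a ratio of 0.27 (-0.09 to 0.64), all from 1 promoter peak. Ifngr2, the second chain, had 48.7 and 59.3 in 2 intron peaks, a ratio of 0.28 (-0.12 to 0.69). The type I receptor chains, which lie near Ifngr2 on chromosome 16, differed in sign. Ifnar1 had 73.5 in SCR and 84.0 in siPiezo2 (0.19, -0.14 to 0.52), and Ifnar2 had 73.4 and 64.5 (-0.18, -0.55 to 0.17). All 4 intervals included 0 on the deposited scale. With the trimmed mean set to 0, Ifngr1 stood at 0.41 and Ifngr2 at 0.42, and their intervals and that of Ifnar1 lay above 0.

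Of the 7 STAT factors, 6 lay below 0, with a median of -0.21, and with the trimmed mean set to 0 the median was -0.07 and 4 lay below 0. Stat4, which carries interleukin-12 and type I interferon signals in lymphocytes, had 45.0 in SCR and 28.3 in siPiezo2, from 104 and 46 reads, a ratio of -0.65 (-1.20 to -0.16). Both of its peaks lie in intron 2 of 24, and the stronger (chr1:52036076-52036423) had 26.2 in SCR and 13.6 in siPiezo2. The widened interval for Stat4 reached 0.07.

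Stat5b, a factor of growth hormone and cytokine receptors, had 136 in SCR and 92.3 in siPiezo2, from 317 and 150 reads, a ratio of -0.56 (-0.85 to -0.28; widened -0.98 to -0.15). All 6 of its peaks were lower in siPiezo2. A single peak in intron 12 of 18 (chr11:100683805-100684199) held much of this, with 34.4 in SCR and 11.9 in siPiezo2 from 81 and 19 reads, and at -1.45 it was the lowest of all member peaks. The window of a neighbouring peak overlaps it, and a sum over separate windows, which leaves this peak out, stood at -0.34 (-0.66 to -0.03; widened -0.80 to 0.11). The promoter peak of Stat5b had 28.9 and 21.2, a ratio of -0.43. Its neighbour Stat5a, on the same stretch of chromosome 11, had 37.8 and 35.8 in 1 peak, a ratio of -0.08 (-0.59 to 0.41).

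Stat2 and Irf9, which take part in the ISRE-binding complex of type I interferon, were lower in siPiezo2 within counting error. Stat2 had 62.1 and 53.5 at its promoter, a ratio of -0.21 (-0.62 to 0.18). Irf9, the DNA-binding partner, had 55.7 and 47.2, a ratio of -0.24 (-0.67 to 0.18). The genes lay at similar ratios, and both intervals included 0.

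Stat3 and Stat6, with summed densities among the 10 greatest of the members, lay near 0. Stat3, the factor of interleukin-6 signals, had 166 in SCR and 176 in siPiezo2, a ratio of 0.08 (-0.14 to 0.31). Its peaks diverged. The promoter peak had 88.5 and 109 (0.29), while a peak in intron 1 of 23 had 20.6 and 11.6 (-0.77). Stat6, the factor of interleukin-4, had 232 in SCR and 216 in siPiezo2 over 4 peaks around its start site, a ratio of -0.10 (-0.30 to 0.09). The windows of these peaks overlap, and with separate windows the ratio was -0.14 (-0.44 to 0.16).

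**Figure D3:**
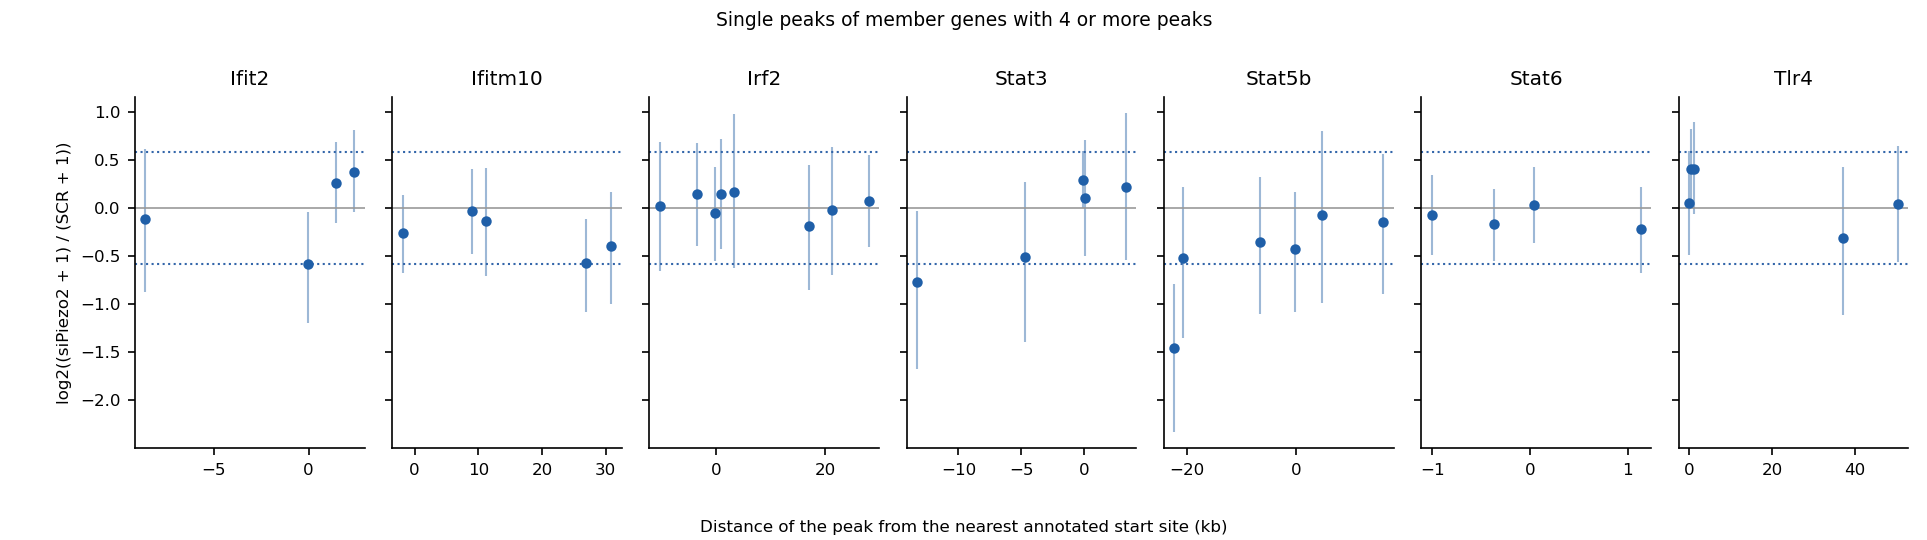
Log2 ratio of siPiezo2 over SCR (y axis) of each peak against its distance from the nearest annotated start site in kb (x axis, one scale per gene) for the 7 members with 4 or more peaks, with 95% counting intervals and dotted lines at 1.5-fold. Irf2 and Stat6 peaks lie near 0, all 6 Stat5b peaks lie below 0 with 1 at -1.45, and Stat3, Tlr4 and Ifit2 have peaks on both sides.

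The IRF factors had a median of -0.15 over 6 genes, with 4 below 0, and no member past 1.5-fold. With the trimmed mean set to 0 the median was -0.01, and on recovered reads 0.06. Irf1, an early target of interferon gamma that activates antiviral genes, had 41.2 in SCR and 30.7 in siPiezo2 at its promoter (chr11:53660615-53661019), from 102 and 48 reads, a ratio of -0.41 (-0.95 to 0.08). This is the promoter with the GAS shown above. Irf7, the factor that amplifies type I interferon output, had 65.3 and 71.1, a ratio of 0.12 (-0.24 to 0.48). Irf2, which competes with Irf1 for the same sites, had 8 peaks, the most of any member, and 213 in SCR and 219 in siPiezo2 (0.04, -0.16 to 0.24). Its 8 peaks ranged from -0.19 to 0.17, and none of them, from the promoter to intron 7, differed beyond counting error. Irf5 (-0.19) and Irf8 (-0.11), factors of leukocytes, had 1 peak each at low density.

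The lowest member was Irf2bp1, a corepressor that binds Irf2 and is a member by name only. Its single promoter peak (chr7:18736769-18737394) had 57.6 in SCR and 29.1 in siPiezo2, from 145 and 45 reads, a ratio of -0.96 (-1.5 to -0.49; widened -1.72 to -0.28). The peak was called in SCR only. The related genes did not lie with it. Irf2bpl had 166 and 164 (-0.01, -0.24 to 0.22), and Irf2bp2 had 95.8 and 112 (0.22, -0.07 to 0.51).

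The cytosolic RNA sensors and their adaptor stayed within counting error of 0, with a median of 0.04 over 4 genes, or 0.18 with the trimmed mean set to 0. Rigi, which binds short RNA with a triphosphate end, had 41.3 in SCR and 42.0 in siPiezo2 (0.02, -0.45 to 0.48). Ifih1, the sensor of long double-stranded RNA known as MDA5, had 24.3 and 25.5 at its promoter (0.06, -0.55 to 0.67). Mavs, the mitochondrial adaptor both signal through, had 61.5 and 66.5 (0.11, -0.26 to 0.48). Dhx58, a regulator of both sensors that lacks signalling domains, had 76.1 and 65.9 over 3 peaks, all below 0 (-0.20, -0.57 to 0.15), or -0.11 with separate windows. These intervals leave room for differences of up to 0.67 on the log2 scale.

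Of the Toll-like receptors, 4 had a peak, with a median of 0.07, or -0.05 with separate windows and 0.20 with the trimmed mean set to 0. Tlr4, the receptor for bacterial lipopolysaccharide, had 152 in SCR and 176 in siPiezo2 over 5 peaks, a ratio of 0.21 (-0.02 to 0.44). The intron 1 peaks nearest the start site had 45.2 and 60.2 (0.40) and 33.0 and 44.1 (0.41), and the promoter peak had 30.3 and 31.5 (0.05). The windows of these 3 peaks overlap, and a sum over separate windows, which leaves both intron 1 peaks out, stood at -0.03. Tlr3, the endosomal receptor for double-stranded RNA, had 16.2 and 18.8 from 37 and 31 reads (0.21, -0.52 to 0.95). Tlr5 (-0.19), for flagellin, and Tlr9 (-0.07), for unmethylated DNA, likewise had intervals that included 0.

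The genes grouped by name as binding double-stranded or Z-form nucleic acid, not all of them enzymes, held 2 of the 4 members past 1.5-fold upwards. Oasl1 and Oasl2 are adjacent genes on chromosome 5 for proteins related to the oligoadenylate synthetases, and Oasl1 is known to restrain translation of Irf7. Oasl1 had 101 in SCR and 152 in siPiezo2, from 262 and 230 reads, a ratio of 0.59 (0.34 to 0.86; widened 0.22 to 0.97). Both of its peaks lie in intron 2 of 6 and were called in both libraries. Their windows overlap. The one at chr5:115064321-115064700 had 51.0 and 75.5 (0.56) and the one at chr5:115064947-115065264 had 49.5 and 76.8 (0.62). With 1 of the pair only, Oasl1 stood at 0.56 (0.19 to 0.94), just inside 1.5-fold.

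Oasl2 had 15.5 in SCR and 26.8 in siPiezo2 at its start site (chr5:115035511-115035862, within the 5′ UTR), from 36 and 44 reads, a ratio of 0.75 (0.12 to 1.47). It was the highest member, and the peak was called in siPiezo2 only. Its widened interval reached down to -0.17. Neither promoter held an ISRE core or a GAS within the 300 bases searched.

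The other genes of the group did not differ beyond counting error. Eif2ak2, the kinase PKR that halts translation when it binds double-stranded RNA, had 34.2 and 42.2 at its promoter (0.30, -0.18 to 0.78). Adar, which edits adenosine to inosine in double-stranded RNA, had 91.6 and 84.4 over 3 peaks (-0.12, -0.44 to 0.20). Zbp1, the sensor of Z-form nucleic acid, had 17.4 and 18.3 in its last intron (0.07, -0.66 to 0.79). Oas1c had 36.0 and 34.4 (-0.06).

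The guanylate-binding proteins, interferon gamma-induced GTPases, had 5 members with a peak and a median of 0.04, or 0.18 with the trimmed mean set to 0 and 0.25 on recovered reads. Gbp8 had 31.9 in SCR and 17.5 in siPiezo2 in 1 peak of intron 1 of 9 (chr5:105206720-105207128), from 76 and 28 reads, a ratio of -0.83 (-1.54 to -0.22; widened -1.84 to 0.06). Gbp3, Gbp7, Gbp2 and Gbp5 lie together on chromosome 3. Gbp3 had 79.6 and 62.5 over 2 overlapping windows (-0.34, -0.71 to 0.01), or -0.18 with separate windows, while Gbp2 (0.04), Gbp5 (0.11) and Gbp7 (0.10) had densities between 20.5 and 24.1 in either library. Gbp genes are close relatives, so reads could have been placed on the wrong copy, and this was not tested.

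In the IFIT and IFITM families, the median was -0.28 over 7 genes, with 4 below 0 under the deposited scaling and each of the 4 others tried. The median was -0.14 with the trimmed mean set to 0. With peaks called in both libraries only, it was 0.25 over 5 genes, with 2 below 0. Ifitm2, of the membrane proteins that block viral entry, had 73.8 in SCR and 47.1 in siPiezo2 at its promoter (chr7:140535812-140536579), from 192 and 71 reads, a ratio of -0.64 (-1.06 to -0.25; widened -1.24 to -0.08). Its neighbour and close relative Ifitm3 had 30.4 and 22.5 (-0.41, -1.05 to 0.17). Ifitm10 had 224 and 184 over 5 peaks, all below 0, a ratio of -0.28 (-0.49 to -0.07; widened -0.58 to 0.02). Its peak in intron 3 of 3 (chr7:141883811-141884512) was the lowest of them, with 51.6 in SCR and 34.3 in siPiezo2 (-0.58). All 3 IFITM genes thus lay below 0, Ifitm2 past 1.5-fold.

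The IFIT genes, whose products bind foreign RNA ends, stood on both sides of 0. Ifit2 had 143 in SCR and 151 in siPiezo2 over 4 peaks, a ratio of 0.08 (-0.16 to 0.32), or -0.02 with separate windows. Its promoter peak (chr19:34527884-34528189) had 36.5 and 24, a ratio of -0.59 (-1.19 to -0.04), while the peaks in intron 1 had 46.1 and 55.5 (0.26) and 42.4 and 55.3 (0.38). Ifit3 passed 1.5-fold at -0.59 on 20 and 10 reads, with an interval from -1.93 to 0.49, and its peak lies downstream of the gene. Ifit1bl1 (0.25) and Ifit1bl2 (0.30) lay above 0 within counting error.

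Of the HIN-200 family, nuclear proteins that bind DNA, Ifi207 had 15.1 in SCR and 25.6 in siPiezo2 at its promoter (chr1:173569202-173569459), from 35 and 42 reads, a ratio of 0.72 (0.07 to 1.45; widened -0.22 to 1.74). Its relatives in the same cluster on chromosome 1 had the other sign, Ifi205 with 25.3 and 20.5 (-0.29, -0.97 to 0.33) and Ifi202b with 35.6 and 27.8 (-0.34, -0.91 to 0.19). The genes of this cluster are close copies, so reads could have been split wrongly among them, which was not tested.

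Among the other interferon-induced genes, Bst2 had 26.9 in SCR and 42.4 in siPiezo2 at its promoter (chr8:71989950-71990366), from 66 and 67 reads, a ratio of 0.64 (0.14 to 1.17; widened -0.08 to 1.39). This is the promoter with the overlapping cores shown above. Rsad2, which makes the antiviral nucleotide ddhCTP, had 43.7 and 55.7 (0.34, -0.07 to 0.77). Its peak in intron 1 of 5 had 19.0 and 29.6 (0.61) and its promoter peak 24.7 and 26.1 (0.08). Their windows overlap, and without the promoter peak Rsad2 stood at 0.61 (0.02 to 1.26; widened -0.25 to 1.53), past 1.5-fold. Ifi47, an immunity-related GTPase, had 34.8 and 47.1 (0.42, -0.03 to 0.90). Ifi30, a lysosomal thiol reductase for antigen processing, had 77.9 and 58.6 (-0.40, -0.79 to -0.04; widened -0.95 to 0.11). Its 2 windows overlap, and with 1 of them the interval ran from -1.04 to 0.05. Usp18, which removes ISG15 from proteins, had 31.4 and 25.1 (-0.31, -0.91 to 0.25). Over the 11 genes of the group the median was -0.11, with 8 below 0, and with the trimmed mean set to 0 it was 0.02, with 5 below 0.

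**Figure D4:**
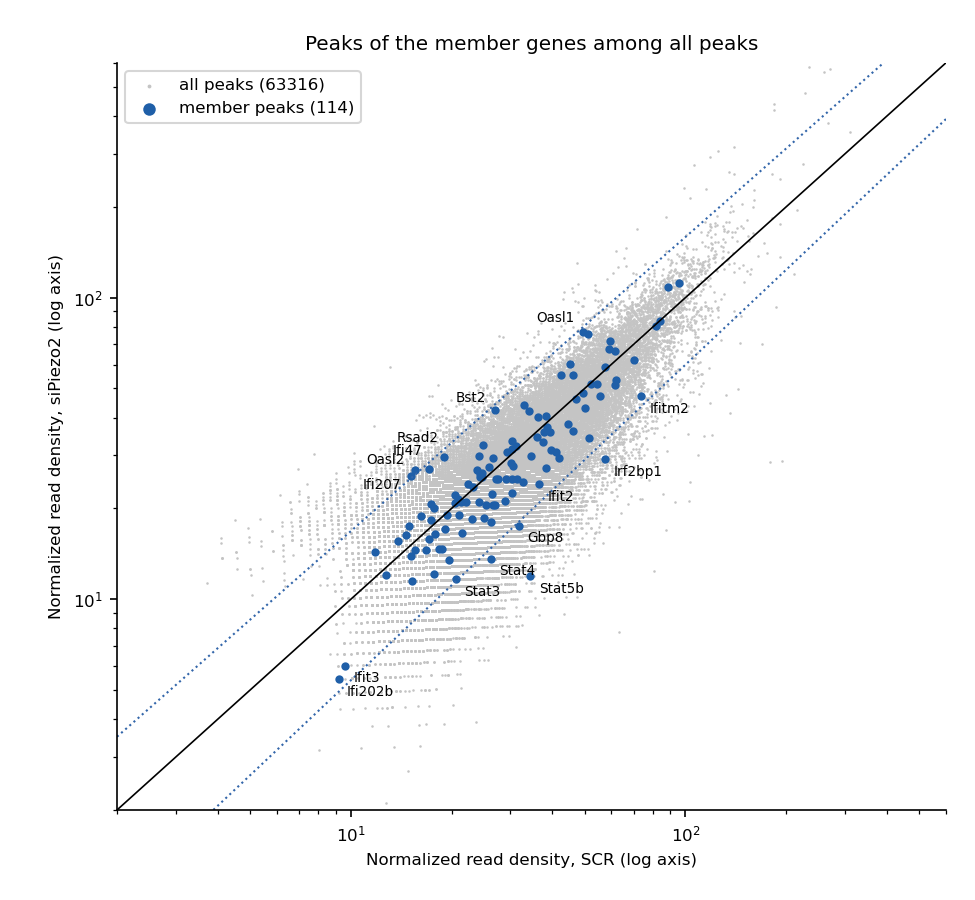
Normalized read density of each peak in SCR (x axis) and siPiezo2 (y axis), both log axes, for all 63316 peaks (grey) and the 114 member peaks (blue). The solid line marks equal density, the dotted lines 1.5-fold, and member peaks past them carry their gene's symbol. Of these, 9 lie below and 6 above, and 20 peaks of the table lie outside the axes.

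By position, the 38 member peaks annotated as promoter within 1 kb had a median log2 ratio of -0.03, the same as that of all 9251 peaks of that class (-0.03). The 57 intron peaks had -0.09, against -0.17 for all 26569 intron peaks. Peaks were called from the reads of each library, so this split is tied to the ratio and nothing is read from it. It does not fix the sign, since 45 of the 62 member peaks called in SCR only lay below 0. The 50 member peaks called in both libraries had a median of 0.05 and the 62 called in SCR only one of -0.14, where all peaks with a symbol had 0.01 and -0.22. Of the 9 member peaks lower past 1.5-fold, 8 were called in SCR only, beside 4834 of the 5631 such peaks in the table. The siPiezo2 windows held 0.597 of the reads of SCR, and the part of this depth gap in the calls was not tested.

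Of the 131 genes the same symbols cover in RefSeq, 62 had a peak, and of the 123 that code for protein, 61 did (49.6%), against 58.4% of all 21896 protein-coding genes. The roles differed in this. All 7 STAT factors, all 4 RIG-I-like receptor and adaptor genes and 4 of 5 receptor chains had a peak, against 5 of 14 Gbp and Mx genes, 4 of 12 Toll-like receptors, 3 of 12 HIN-200 genes and 0 of 19 type I interferon genes. Isg15, Mx1, Mx2, Irf3 and Tlr2 had none under their symbol in either library. A gene with no peak under its symbol has no summed density here, so no gene ratio is given for it. Its start site need not lack peaks nearby. Irf3 had 1 peak to which its start was the nearest, and distal peaks of this kind are given further below.

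**Figure D5:**
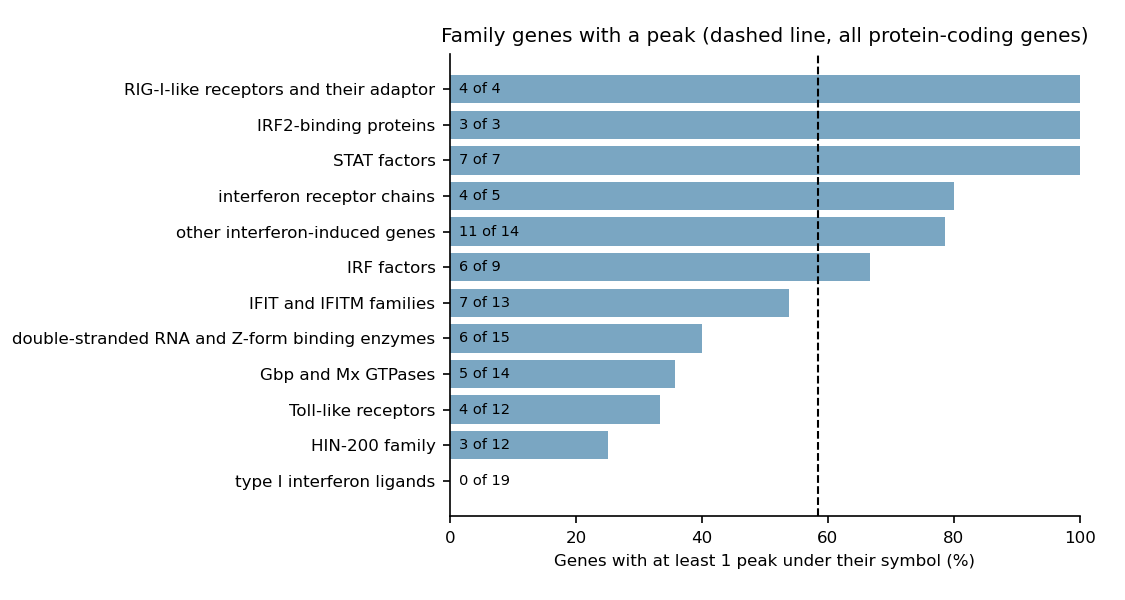
Share of the RefSeq genes of each role that had at least 1 peak under their symbol (bars, percent), with the counts printed in the bars. The dashed line is the 58.4% of all protein-coding genes. STAT factors and the RIG-I-like receptors with their adaptor all have a peak, while the HIN-200 family (3 of 12) and type I interferons (0 of 19) lie below the line.

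A list of 108 further genes of these pathways (kinases, ubiquitin ligases, adaptors, antigen processing and feedback genes) had 87 with a peak. Their median log2 ratio was -0.10, with 55 below 0, and 0.04 with the trimmed mean set to 0. Past 1.5-fold lay 3 lower and 0 higher, beside 6.6% and 1.54% of all genes. Under each of the 4 other scalings, and with the strongest peak only, Unc93b1 still passed while Parp14 and B2m did not. Unc93b1, the chaperone that carries nucleic acid-sensing Toll-like receptors to endosomes, had 48.8 in SCR and 25.6 in siPiezo2, a ratio of -0.90 (-1.48 to -0.40). Parp14, a mono-ADP-ribosyltransferase, had 38.7 and 24.5 (-0.64, -1.23 to -0.10; widened -1.48 to 0.14). B2m, the light chain of MHC class I, had 93.5 and 60.7 over 2 peaks (-0.61, -0.98 to -0.27), and with separate windows -0.51. On recovered reads Parp14 stood at -0.38. The highest of the list was Cmpk2, the neighbour of Rsad2, with 41.6 and 60.1 (0.52, 0.11 to 0.95; widened -0.07 to 1.13).

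Cell type markers were read beside these ratios. Of 12 fibroblast markers 10 had a peak, all but Lum and Thy1, with summed densities of 1223 in SCR and 954 in siPiezo2 and a median ratio of -0.40, with 9 of 10 below 0, or -0.26 with 7 below 0 with the trimmed mean set to 0. Of 16 macrophage and leukocyte markers 6 had a peak, among them Csf1r, Itgam, Laptm5, Mrc1 and Ptprc, with 259.5 and 208 in all and a median of -0.29, which was -0.15 with the trimmed mean set to 0 and -0.01 on recovered reads. Of 8 endothelial markers 6 had one, with 494 and 532 and a median of 0.06, or 0.20 with the trimmed mean set to 0. Of 8 cardiomyocyte markers 3 had one, with 146 and 152. Accessible chromatin at a marker is no count of cells, and the part of these shifts in the members' ratios was not tested. Piezo2 itself had 334 in SCR and 242 in siPiezo2 over 14 peaks (-0.46, -0.64 to -0.29), which does not measure the knockdown, since siRNA acts on the transcript.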

How the data were processed

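The 2 ATAC-seq libraries were made with a hyperactive Tn5 kit per the labels. The authors trimmed adapters, aligned with BWA (0.7.12 per the processing notes), removed duplicates with Picard and called peaks with MACS2. The stated build is mm10, yet peaks pass the ends of 2 mm10 chromosomes, so coordinates are printed as deposited and their build is not given in the sources used here. The authors deposited 1 annotated table of merged peaks with normalized read densities (signal) per library, log2 ratios and p-values. Their log2 and p-value columns hold the study's own comparison and were not used. The methods name featureCounts for peak intensity. The tool behind the deposited normalized densities is not given in the sources used here.

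From the densities, whole reads were recovered for 100% of peaks (tolerance 0.05), after inverting a linear correction (slope 0.174, intercept -0.248) and removing 1 pseudo-read. Densities were summed per symbol, and ratios used a pseudocount of 1. Called means past 1.5-fold. The steps were tested on simulated data and recovered the reads of 100% of peaks. The simulation used the same window, pseudo-read and form of correction, so it checks the code and not these assumptions. Its noise was counting error alone, and 2.93% of its unchanged genes lay past 1.5-fold from their median. Members and lists were chosen with earlier results of these data known. Named genes were members past 1.5-fold, the 10 densest members, set pathway genes, the owners of the 5 lowest and 5 highest member peaks of at least median density, and other pathway genes past 1.5-fold. A member and a marker gene are not reported here by name. Other genes in the text were named to complete their group after their values were seen. Promoter sequences came from RefSeq (GRCm38.p6), matched by symbol. Python 3.11.15, numpy 2.4.6, scipy 1.17.1, pandas 2.3.3 and matplotlib 3.10.9 were used. The alternatives were other scalings, pseudocounts, peak sets, folds and filters.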

Additional observations from a re-analysis of the deposited data

How the results depend on the processing

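No paired analysis was possible because each condition had 1 library. The scalings moved the median of all genes by up to 0.139 on the log2 scale. The median of the members stayed within its own interval, from -0.08 to 0.06, under every alternative run. In place of the 5 members lower past 1.5-fold, 2 (Irf2bp1 and Gbp8) passed with the same total density, with median-of-ratios scaling or with the trimmed mean set to 0, beside 4.54%, 3.67% and 3.6% of all genes, 3 (Gbp8, Ifitm2 and Irf2bp1) with recovered reads, beside 3.24% of all genes, 3 (Ifit2, Ifitm2 and Irf2bp1) with promoter peaks only (5.69%) and 3 with peaks within 1 kb by distance (5.93%, an alternative chosen after seeing the data), 1 (Ifitm2) with peaks called in both libraries only (3.01%), and 0 at 2-fold (0.839%). In place of the 4 higher, the same 4 passed under the 3 density scalings, beside 2.7%, 3.83% and 3.89% of all genes, 5 with recovered reads (Bst2, Ifi207, Ifi47, Ifng and Oasl2; 4.32% of all genes), 2 (Bst2 and Ifi207) with promoter peaks only (1.89%), 3 (Bst2, Ifi207 and Oasl2) within 1 kb by distance (1.9%), 3 (Bst2, Ifi207 and Oasl1) with peaks called in both libraries (2.41%), and 0 at 2-fold (0.154%). With the strongest peak only Ifi47, and with separate windows Rsad2, took the place of Oasl1. Restricting the peaks left 37 to 45 members. The cause of the other shifts was not tested. The median of the other pathway genes was 0.034 with median-of-ratios scaling, 0.037 with the trimmed mean, and 0.0028 at peaks called in both libraries. With intervals widened by the extra variance, chosen after seeing the data, 3 members lay below 0 and 1 above, beside 7.07% and 1.47% of all genes. With separate windows, also chosen then, 6 lay below and 5 above, beside 14.2% and 4.15% of all genes. Above 0 lay 8 with the same total density, 10 with median-of-ratios scaling, 12 with the trimmed mean and 8 on recovered reads, beside 8.49%, 11.6%, 11.9% and 9.36% of all genes. Below 0 lay 5 under each, beside 9.91%, 7.34%, 7.19% and 8.39% of all genes in the same order. For the 39 named genes, 359 of 361 alternative ratios stayed within the counting interval, except Ifit2 with promoter peaks only and Tlr4 with separate windows. Most intervals are wide beside the shifts from scaling, so this count is a loose check. Of the 12 named genes past 1.5-fold, 7 stayed past it under each of the 4 other scalings, and 0 changed sign under any alternative.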

Other observations

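Family genes without a peak under their own symbol still had distal intergenic peaks for which theirs was the nearest start site. There were 28 such peaks for 14 genes, with a median log2 ratio of -0.16 and 19 below 0, beside -0.18 for all 19430 distal intergenic peaks. Ifnb1, the gene of interferon beta, had 6 of them, which together had 143 in SCR and 142 in siPiezo2, with a ratio of -0.01 (-0.26 to 0.24). Tlr2, the receptor for bacterial lipopeptides, had 4, with 126 and 120 (-0.06, -0.33 to 0.20). Mx1, listed as a transcribed pseudogene in RefSeq, had 2, with 30.9 and 32.7 (0.08, -0.46 to 0.62). None of these 3 sums differed beyond counting error. Tlr13, a receptor for bacterial ribosomal RNA, had 2 peaks with 33.9 and 21.9 (-0.61, -1.25 to -0.04; widened -1.51 to 0.21), and Ifitm1 had 1 with 23.4 and 12.9 (-0.81, -1.66 to -0.10; widened -2 to 0.22). The ratio of the Ifitm1 peak was below 0, as were those of Ifitm2, Ifitm3 and Ifitm10, while 1 peak nearest to Ifitm7 had a ratio of 0.23 (-0.51 to 0.99). The nearest start site need not be the gene such a peak acts on.

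The neighbours Rsad2 and Cmpk2 on chromosome 12 both lay above 0 (0.34 and 0.52), as did the neighbours Oasl1 and Oasl2 on chromosome 5 (0.59 and 0.75). The pairs were picked after their values were seen, so nothing is read from them beyond the values.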
